A study of Mus musculus with 42 samples.

Results

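The carotid intima under low flow was compared between 7 d and 48 h after partial ligation of the left carotid artery, with the high-flow artery of the other side as the reference at each time. The libraries were chosen by their labels and column names, with earlier results of these data known. Of the 42 libraries of the series, the 150 bp libraries of low-flow intima from control mice, 3 at 7 d and 4 at 48 h, make up the 7 libraries compared here. A further 6 libraries, 2 at 7 d and 4 at 48 h, are the high-flow reference, so that 13 libraries entered the fits. RNA was flushed from the inner surface of the vessel with Trizol, and each library held the RNA of a pool of 3 to 5 arteries.

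The mice differed between the times in more than time. At 48 h they were male C57BL/6J mice of 6 to 7 weeks that had received a control treatment, either a non-specific IgG antibody (2 low-flow and 2 high-flow libraries) or liposomes filled with PBS (2 and 2). At 7 d they were males and females of 2 to 7 months on a C57 background, littermate controls of an endothelial Rbfox2 deletion, with the Rosa26-mTmG reporter and Rbfox2 lox/lox alleles but without Cre. The read files carry 3 prefixes, taken here as sequencing runs. Run 1 held all 4 low-flow libraries of 48 h and low-flow library 1 of 7 d. Run 2 held all 6 high-flow libraries and low-flow library 4 of 7 d, and run 3 held low-flow library 5 of 7 d. At 48 h all low-flow libraries were thus in one run and all high-flow libraries in another, so that flow and run cannot be told apart within that time. Time, age, genotype, sex and treatment cannot be told apart in these samples, and run differed for 2 of the 3 low-flow libraries of 7 d, so every difference between 7 d and 48 h given here is a difference between these groups of mice.

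Endothelial cells sense the drag of flowing blood. Steady flow keeps up the transcription factors Klf2 and Klf4 and the nitric oxide synthase Nos3, which hold the vessel wall quiescent, while low and disturbed flow lowers them, raises Angpt2 and Edn1 and makes the endothelium adhesive for leukocytes. In such vessels neutrophils and monocytes attach, intimal cells divide and the wall is remodelled, so intimal RNA holds endothelial RNA together with that of attached blood cells and of some smooth muscle and adventitial cells. In bulk samples of this kind, fewer cells of a type and less RNA per cell cannot be told apart.

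Library totals lay between 10318685 and 19035957 counts on genes. Levels are given in FPKM, counts scaled to effective transcript length and to the library total. The 3 low-flow libraries of 7 d differed from each other. Across the 13404 genes tested, library 1 correlated with the 2 high-flow libraries of 7 d at r = 0.914 and 0.943 and with the other low-flow libraries of 7 d at 0.854 and 0.874. Library 4 correlated with the 48 h low-flow libraries at 0.913 to 0.938. On the first principal component, which held 53.5% of the variance, libraries 1, 4 and 5 lay at −20.4, 94.9 and 46.0. The 48 h low-flow libraries lay at 74.2 to 112 and the high-flow libraries at −110 to −26.8. The value of −26.8 belongs to PBS library 2 of the 48 h high-flow group, which stood apart from the other 5 high-flow libraries, at −78.6 or below. The main counts are therefore given with and without library 1 and this library.

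**Figure D1:**
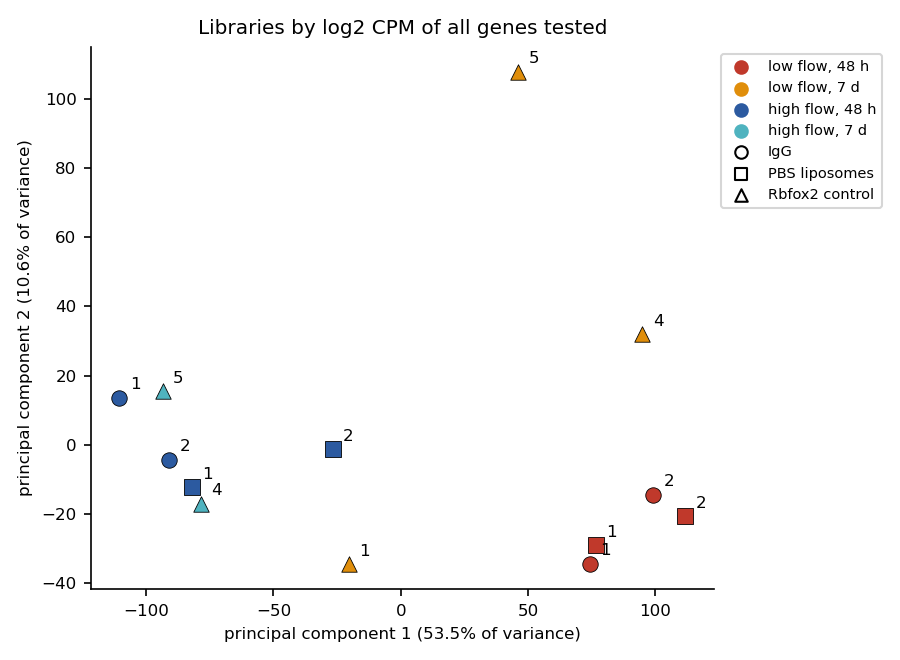
First and second principal component of the log2 normalised counts of the 13404 genes tested, each point 1 library, coloured by flow and time, with the shape showing the treatment or genotype. The 7 d low-flow libraries are spread from −20.4 to 94.9 on the first axis, and library 5 stands alone on the second axis at 108.

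The makeup of the 7 d pools differed as well, and its part in the results was not tested. Summed over 22 T and NK cell markers, library 1 held 365 FPKM, against 34.2 and 16.3 in libraries 4 and 5 and 27.3 to 55.5 at 48 h. The T cell receptor gene Cd3e was at 24.9, 0.45 and 0 FPKM in libraries 1, 4 and 5. The sum of 15 neutrophil markers was 33.6, 366 and 24.8 FPKM in libraries 1, 4 and 5, against 208 to 654 at 48 h. Library 1 alone was therefore rich in T cell RNA and library 4 alone in neutrophil RNA. For 22 monocyte and macrophage markers the sums were 722, 1734 and 490 FPKM, against 1674 to 2749 at 48 h. Over 14 endothelial markers they were 4142, 2640 and 2639 FPKM at 7 d and 2729 to 3065 at 48 h, below the 4925 to 6465 of the high-flow libraries. Xist was at 5.83 to 10.1 FPKM in the 3 low-flow libraries of 7 d and at most 0.00981 at 48 h, while the Y-linked gene Ddx3y was at 17.7, 0 and 0 FPKM in libraries 1, 4 and 5 and at 20.3 to 30.3 at 48 h. Library 1 thus held RNA of both sexes. In the other 4 libraries of 7 d, at low and high flow, the Y-linked genes Ddx3y, Eif2s3y, Kdm5d and Uty were all at 0 while Xist was at 4.63 FPKM or more, so these pools held female RNA and were set against male mice at 48 h.

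**Figure D2:**
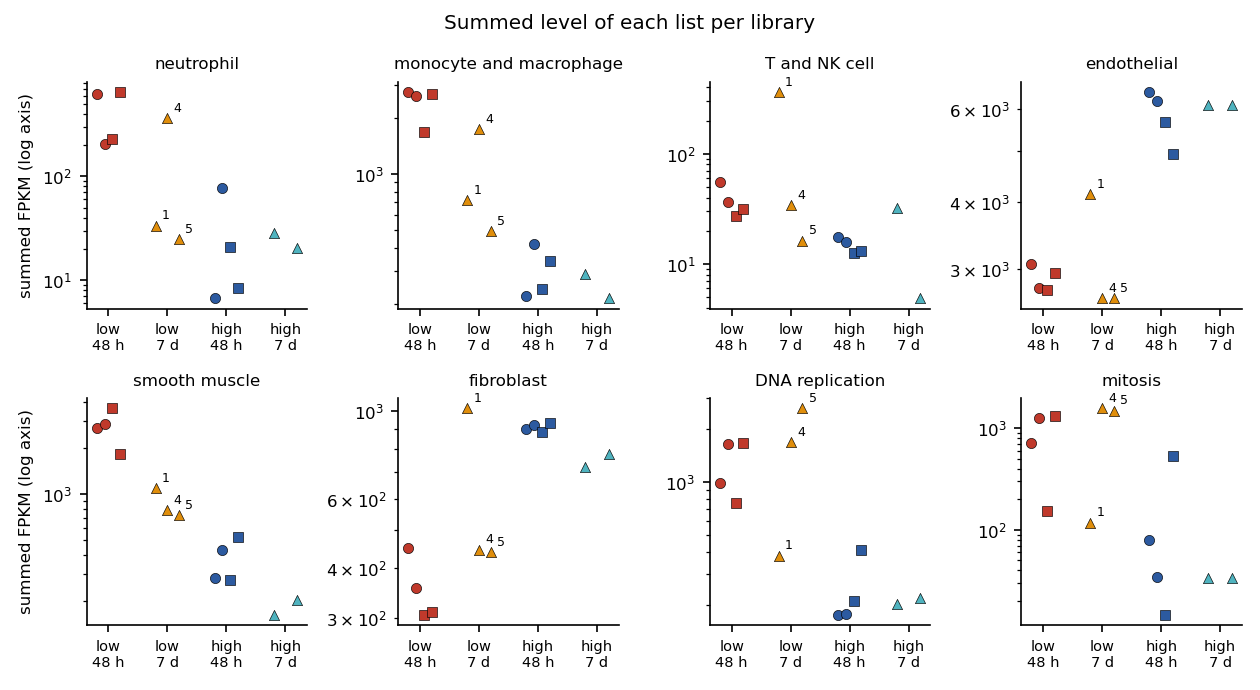
Summed FPKM of 6 lists of cell type markers and 2 cell cycle lists in each library, on log axes, with the 7 d low-flow libraries numbered 1, 4 and 5. At 7 d the T and NK cell sum is high in library 1 alone, at 365, the neutrophil sum is high in library 4 alone, at 366, and the mitosis sums are 118, 1578 and 1496.

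Between 7 d and 48 h at low flow, 1843 of 13404 genes passed an adjusted p of 0.05 (13.7%), 851 higher at 7 d (6.35%) and 992 lower (7.4%). The FPKM of the groups did not overlap for 3618 genes (27.0%), 16.1% higher at 7 d and 10.9% lower. Single genes that fell included Angpt2, Ctgf, Acta2, Chi3l3, Retnlg and Arg1, and single genes that rose included Tgfbr2, Ltbp2 and Gbp4. In the gene lists below that hold these genes, most members did not pass. At high flow, with 2 libraries against 4, 0 genes passed between the same times by edgeR, where the unadjusted p was under 0.05 for 942 and DESeq2 called 85. The difference between the time effects at low and high flow, tested as an interaction, passed for 511 genes (3.81%), 63 with the more positive change at low flow (0.47%) and 448 with the more negative (3.34%). Without library 1 the count at low flow was 2011, with 793 higher and 1218 lower, and the interaction count was 927. Without library 1 and the high-flow library that stood apart, the counts were 2433 and 1276. Library 1 alone against the 48 h low-flow libraries of its run gave 2194 genes, 1186 higher and 1008 lower, with the lone library assumed to vary like the other groups.

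The counts depended on which libraries stood for 48 h. With the 2 PBS libraries alone 1618 genes were called at low flow. With the 2 IgG libraries alone 0 were called, although 1937 had an unadjusted p under 0.05, so no call named here holds against the IgG libraries alone. Leaving out PBS library 1 or 2 of 48 h left 755 and 731 genes, and leaving out library 5 of 7 d left 1050. Of the 54 called genes named for low flow, 25 were called in each of the 13 fits that left out 1 library: Hebp1, Ugt8a, Scd1, Ltbp2, Clic5, C1s, Itgb4, Ltbp1, Gpm6a, Mcf2l, Itga8, Lum, Xist, Csf1 and Tgfbr2 among those that rose, and Retnlg, Chi3l3, Snhg6, Angpt2, Ctgf, Icam2, Acta2, Id1, Cthrc1 and Ier3 among those that fell. The other 29 lost their call in at least 1 of these fits. Of the 12 genes named for the interaction, Samd9l and Rpl38 passed in all 13.

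The calls also changed with a term for run. The 48 h low-flow libraries shared 1 run and the high-flow libraries another, so the term is set by library 1 against libraries 4 and 5 of 7 d. It cannot tell run apart from other traits of library 1. With run 1 against the later runs as a term, a setting chosen after the data were seen that rests on the 3 low-flow libraries of 7 d, 2041 genes passed at low flow, 1074 higher and 967 lower, so that the balance of directions turned over. Of the 54 called genes named for low flow 34 kept their call and 20 did not: Ctgf, Icam2, Id1, Tagln, Arg1, Retnlg, Ccl7, Pf4, Fos, Ier3, Snhg6, Ltc4s, Hopx and Mfap5 among those that fell, and Nos3, Cd274, Ifit2, Col4a1, Col18a1 and Fbln2 among those that rose. With library 1 alone against the 48 h libraries of its run, 37 of the 54 passed, and of those 20 genes only Retnlg, Ccl7, Snhg6 and Cd274 did, while Gap43 was lost as well. Of the 12 genes named for the interaction, Angpt2, Prnd, Samd9l and Gbp9 passed with the run term and 8 did not.

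**Figure D3:**
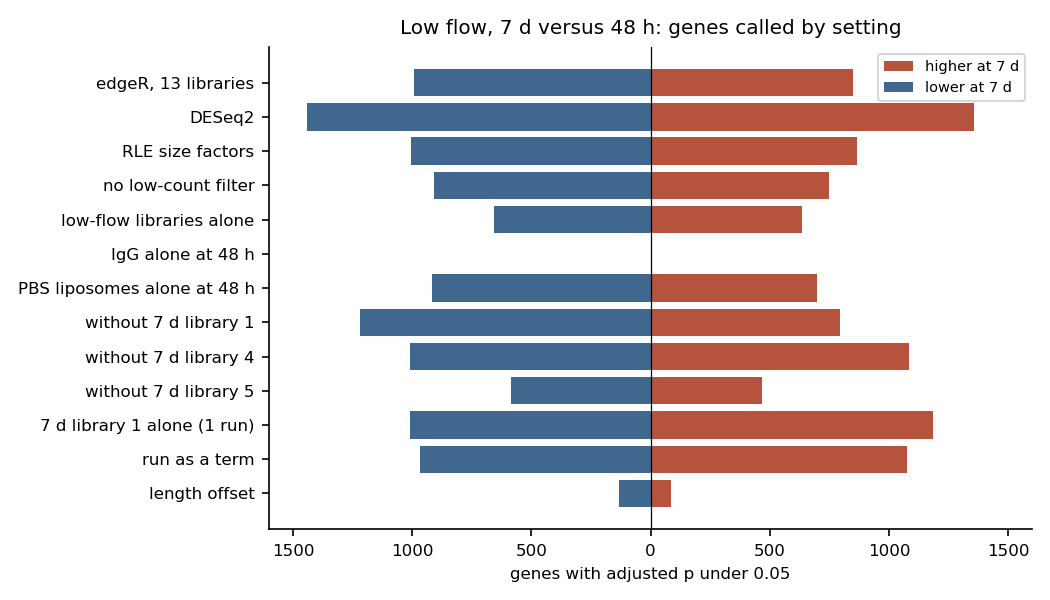
Number of genes with adjusted p under 0.05 between 7 d and 48 h at low flow under different settings, with those higher at 7 d to the right and those lower at 7 d to the left of 0. The count is 1843 as reported, 2799 with DESeq2, 0 with the IgG libraries alone at 48 h, and 217 with an offset for transcript length.

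The difference followed transcript length. Among the 939 genes of under 1 kb tested, the median log2 fold change at low flow was −1.08, and 452 fell while 1 rose. Among the 3578 genes of 4 kb or more the median was 0.52, and 577 rose while 26 fell. The median over all genes was 0.05. At high flow the medians in these classes were 0.55 and −0.02. Across the 13404 genes the Spearman correlation of length with the log2 fold change was 0.53 at low flow and −0.11 at high flow, as a description, since the genes share libraries. Genes of 4 kb or more took 15.3% to 20.2% of the counts in the 48 h low-flow libraries, 24.4% to 27.3% in those of 7 d and 21.7% to 32.9% in the high-flow ones. Library 1, of the same run as the 48 h libraries, had 27.3%, and its genes of under 1 kb lay at a median log2 of −0.73 from the 48 h mean, against −1.04 in library 4 and −1.31 in library 5.

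With an offset in each library for a smooth trend over length, a setting chosen after the data were seen, 217 genes were called at low flow (1.62%), 84 higher (0.627%) and 133 lower (0.992%). Of these, 183 were also among the 1843, which is 84.3% of the shorter list and 9.93% of the longer one. The interaction then passed for 7 genes (0.0522%). Of the 54 called genes named for low flow, 11 kept their call: Angpt2, Chi3l3 and Acta2 among those that fell, and Itga8, Ltbp2, Tgfbr2, Lum, Itgb4, Hebp1, Mcf2l and Xist among those that rose. None of the 12 genes named for the interaction kept that call with the offset. Such an offset also removes any difference between short and long transcripts that the cells themselves had, and these cannot be told apart here.

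**Figure D4:**
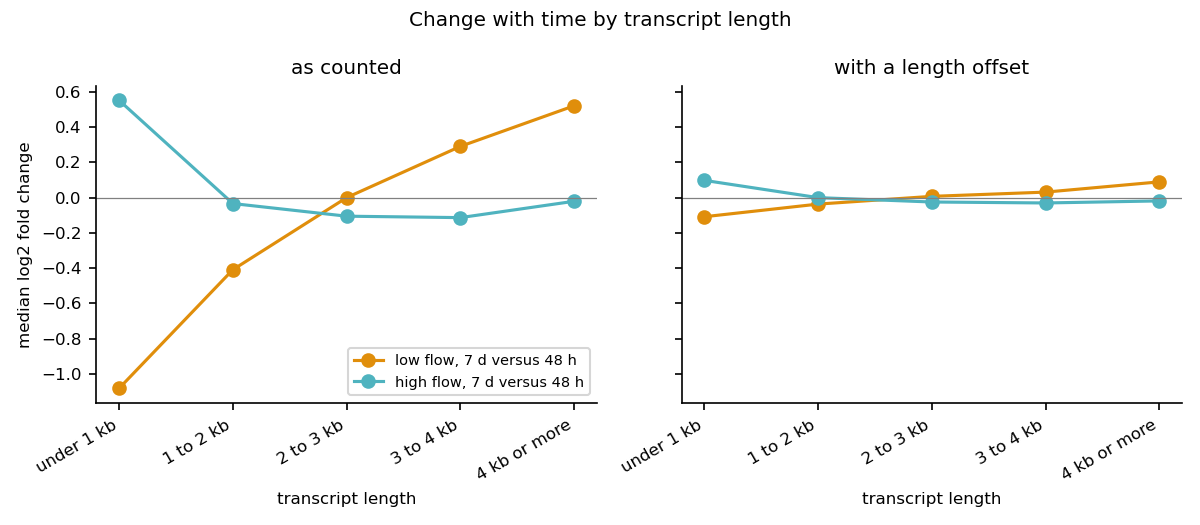
Median log2 fold change between 7 d and 48 h in 5 classes of transcript length, for low flow and high flow, as counted and with the length offset. As counted, the low-flow median runs from −1.08 under 1 kb to 0.52 at 4 kb or more, and with the offset from −0.11 to 0.09.

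Endothelial genes that mark disturbed flow went different ways. Angpt2, an antagonist of the Tie2 receptor that loosens endothelial contacts (chromosome 8, 18690263 to 18741562, minus strand), was at 129, 215, 395 and 113 FPKM in the 48 h low-flow libraries (IgG 1 and 2, then PBS 1 and 2) and at 20.8, 26.2 and 19 in libraries 1, 4 and 5 of 7 d. In the 6 high-flow libraries it lay between 0.473 and 2.83. The low-flow groups did not overlap, and the level at 7 d was still above every high-flow library. It fell 11.1-fold (log2 fold change −3.47 ± 0.53, adjusted p = 0.0045; −3.47 with the length offset, adjusted p = 0.021), in all 13 fits that left out 1 library. The interaction with flow was −4.32 ± 0.76, adjusted p = 0.0074, a call that was lost without high-flow library 4 of 7 d.

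Edn1, the vasoconstrictor endothelin 1, was at 693, 479, 1224 and 432 FPKM at 48 h and at 125, 157 and 371 at 7 d, against 40.9 to 118 at high flow. The groups did not overlap, and the fall was 3.66-fold (−1.87 ± 0.49, adjusted p = 0.025). It was lost without PBS library 1 or without library 1 or 4 of 7 d. Nos3 was at 134, 93.5, 86.3 and 107 FPKM at 48 h and at 202, 215 and 186 at 7 d, against 336 to 524 at high flow. The low-flow groups did not overlap, and both lay below all high-flow libraries. Nos3 rose 1.71-fold (0.78 ± 0.19, adjusted p = 0.018; 0.41 with the length offset, adjusted p = 0.22), and at 7 d it was 2.29-fold below high flow (adjusted p = 0.020).

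Klf2 and Klf4 were low at both times. Klf2 was at 105, 23.2, 24.4 and 24.6 FPKM at 48 h and 69, 41.1 and 29.4 at 7 d, against 357 to 932 in the high-flow libraries. The low-flow groups overlapped, and the log2 difference was −0.07 ± 0.52, adjusted p = 0.95. Low flow was 14.3-fold below high flow at 48 h (adjusted p = 0.00017) and 15.4-fold below at 7 d (adjusted p = 0.013). Klf4 lay at 2.19 to 6.55 FPKM at 48 h and 1.2 to 9.48 at 7 d, against 19.6 to 70.9 at high flow (0.20 ± 0.63, adjusted p = 0.87).

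Of the 20 genes of the flow-responsive endothelial list, 2 rose (Nos3 and Timp3), 3 fell (Angpt2, Edn1 and Plvap, a component of endothelial diaphragms) and 15 did not pass, with a median of −0.03, beside 6.35% raised and 7.4% lowered among all genes. Timp3, an inhibitor of metalloproteinases, was at 161, 81.3, 152 and 57.3 FPKM at 48 h and at 740, 116 and 424 at 7 d, so the groups overlapped through library 4 (1.75 ± 0.48, adjusted p = 0.031). Of the 14 endothelial markers 1 passed, Icam2, an adhesion molecule, at 391, 360, 294 and 495 FPKM at 48 h and 258, 236 and 198 at 7 d, against 674 to 954 at high flow. Its groups did not overlap (−0.91 ± 0.20, adjusted p = 0.013; −0.30 with the length offset, adjusted p = 0.32).

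**Figure D5:**
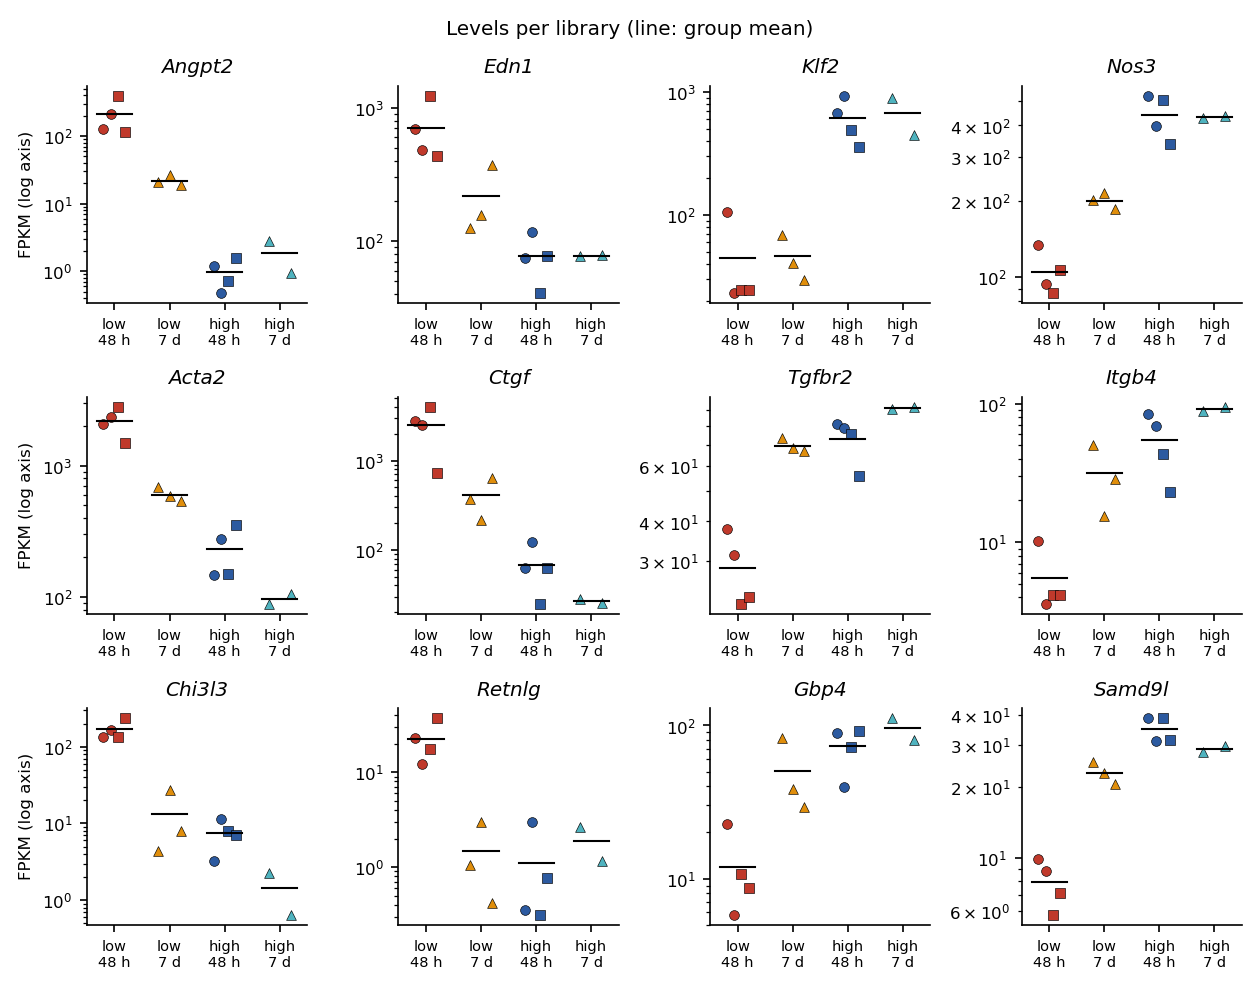
FPKM of 12 genes in each library on log axes, by flow and time, with the line at the group mean. For Angpt2 the 7 d low-flow libraries lie at 19 to 26.2, below all 48 h low-flow libraries (113 to 395) and above all high-flow libraries (at most 2.83), while Klf2 stays at 105 or below in all 7 low-flow libraries.

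Acta2, smooth muscle actin (chromosome 19, 34315580 to 34329826, minus strand), was at 2073, 2349, 2803 and 1484 FPKM at 48 h and at 686, 583 and 539 at 7 d, against 88.2 to 352 at high flow. The groups did not overlap, and the 7 d libraries were close to each other (602 ± 75.3, SD, n = 3). The fall was 4.08-fold (−2.03 ± 0.35, adjusted p = 0.0051), and −1.77 with the length offset, adjusted p = 0.024. At high flow Acta2 was at 148 to 352 FPKM at 48 h and at 88.2 and 105 at 7 d (−1.36 ± 0.39, adjusted p = 0.40). Its interaction with flow was −0.67 ± 0.49, adjusted p = 0.52. Tagln, an actin-binding protein of smooth muscle, was at 525, 410, 742 and 287 FPKM at 48 h and at 346, 102 and 96.4 at 7 d, with overlap through library 1 (−1.62 ± 0.45, adjusted p = 0.031). Itga8, the integrin alpha 8 chain, rose among the same 12 smooth muscle markers, from 0.463, 0.345, 0.348 and 0.189 FPKM at 48 h to 2.88, 2.87 and 1.34 at 7 d (2.65 ± 0.43, adjusted p = 0.0049; 2.20 with the length offset, adjusted p = 0.024). The remaining 9 did not pass, among them the smooth muscle myosin Myh11, at 0.191 to 1.58 FPKM at 48 h and 0.81 to 2.47 at 7 d. Over all genes 6.35% rose and 7.4% fell.

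Of the 24 genes for TGF-beta signalling and mesenchymal transition, 1 rose, 2 fell and 21 did not pass, with a median of −0.05. These shares are near or below the 6.35% raised and 7.4% lowered of all genes. Ctgf, a matricellular protein induced by TGF-beta (chromosome 10, 24315248 to 24318489, plus strand), was at 2792, 2474, 3993 and 734 FPKM at 48 h and at 370, 217 and 633 at 7 d, against 24.7 to 122 at high flow. The low-flow groups did not overlap, and it fell 6.88-fold there (−2.78 ± 0.62, adjusted p = 0.013), and −2.75 with the length offset, adjusted p = 0.051. At high flow Ctgf was at 24.7 to 122 FPKM at 48 h and at 28 and 25.3 at 7 d (−1.44 ± 0.68, adjusted p = 0.72). Its interaction with flow was −1.34 ± 0.84, adjusted p = 0.44. Id1, an inhibitor of transcription factors that BMP signals induce, was at 89.7, 115, 88.1 and 117 FPKM at 48 h, at 48.9, 40.1 and 18.9 at 7 d and at 99.5 to 275 at high flow. It fell 3.21-fold without overlap (−1.68 ± 0.33, adjusted p = 0.0089; −0.90 with the length offset, adjusted p = 0.12), and at 7 d it was 6.06-fold below high flow (adjusted p = 0.0087). Tgfbr2, the type II receptor of TGF-beta (chromosome 9, 115993415 to 116084383, minus strand), was at 37.9, 31.3, 21.9 and 23 FPKM at 48 h and at 73.3, 68.3 and 66.7 at 7 d, inside the range of the high-flow libraries (55.8 to 92.3). The rise was 2.19-fold without overlap (1.13 ± 0.18, adjusted p = 0.0049; 0.71 with the length offset, adjusted p = 0.024).

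Pdgfb, Angpt1 and Actb were chosen after their values were seen, among the 217 genes called with the offset. Pdgfb, the growth factor by which endothelium recruits mural cells, was at 57.8, 53.3, 69.1 and 36.8 FPKM at 48 h and at 5.6, 11.5 and 14.8 at 7 d (−2.52 ± 0.32, adjusted p = 0.0045; −2.68 with the length offset, adjusted p = 0.0071). Angpt1, the agonist of Tie2, was at 0.988, 0.588, 0.393 and 0.614 FPKM at 48 h and at 5.71, 2.59 and 4.09 at 7 d, against 2.4 to 6.46 at high flow (2.52 ± 0.38, adjusted p = 0.0045; 2.17 with the length offset, adjusted p = 0.024). The Tie2 ligands thus differed in opposite directions between the times. Actb, cytoplasmic actin, was at 4700, 3721, 6987 and 7831 FPKM at 48 h and at 1481, 1295 and 727 at 7 d (−2.51 ± 0.45, adjusted p = 0.0063; −2.28 with the length offset, adjusted p = 0.024). The interaction with the offset did not pass for Pdgfb, Angpt1 or Actb. High-flow levels of Pdgfb and Actb are not given here, so their falls are not set against that reference.

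Counts of matrix and fibroblast genes are given beside 6.35% raised and 7.4% lowered among all genes, and are not read as a result about these lists. Of 23 collagen genes tested, Col4a1 and Col18a1 of the basement membrane rose and 21 did not pass, with a median of 0.14. Col4a1 was at 54.2, 49.2, 52.2 and 39.5 FPKM at 48 h and at 112, 115 and 125 at 7 d, without overlap (1.10 ± 0.30, adjusted p = 0.029; 0.60 with the length offset, adjusted p = 0.13). Of 26 other matrix and protease genes, Fbln2 rose, at 108, 88.9, 61.7 and 89.3 FPKM at 48 h and 162, 176 and 212 at 7 d, and 3 fell. These were Cthrc1, a secreted protein of injured vessels (34.4 to 70.9 FPKM, then 4.43, 15.3 and 19.9), the metalloproteinase inhibitor Timp1 (116 to 247, then 21.7, 124 and 36) and the collagen-binding protein Sparc (1589 to 2395, then 586, 1193 and 1232). Timp1 overlapped between the times through library 4. Fn1, fibronectin, was at 66.8, 62.1, 57.5 and 38.7 FPKM at 48 h and 75.1, 64.8 and 131 at 7 d, with overlap (0.53 ± 0.48, adjusted p = 0.50). Among 10 fibroblast markers, the small proteoglycans Lum and Dcn rose and the microfibril protein Mfap5 fell. Lum was at 20.8, 13.6, 17.2 and 15.3 FPKM at 48 h and 64.5, 53.3 and 23.4 at 7 d (1.32 ± 0.29, adjusted p = 0.013; 1.46 with the length offset, adjusted p = 0.034), and the fibroblast sum was 306 to 450 FPKM at 48 h and 1014, 446 and 440 at 7 d.

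A few genes of myeloid cells were lower at 7 d, while most leukocyte markers did not pass. Chi3l3, a lectin of alternatively activated macrophages and of neutrophils (chromosome 3, 105950472 to 106022425, minus strand), was at 134, 165, 134 and 237 FPKM at 48 h and at 4.37, 27 and 8.06 at 7 d, against 0.637 to 11.5 at high flow. The low-flow groups did not overlap, and the fall was 14.4-fold (−3.85 ± 0.64, adjusted p = 0.0051), and −3.49 with the length offset, adjusted p = 0.024. At high flow Chi3l3 was at 3.21 to 11.5 FPKM at 48 h and at 2.24 and 0.637 at 7 d (−2.43 ± 0.76, adjusted p = 0.47). Its interaction with flow was −1.42 ± 0.90, adjusted p = 0.45. Close relatives of Chi3l3 may share reads with it. Arg1, arginase 1 of macrophages, was at 7.28, 12.1, 31 and 6.91 FPKM at 48 h and at 0.136, 1.69 and 0.291 at 7 d (−4.54 ± 1.34, adjusted p = 0.042), without overlap, a call lost in 6 of the 13 fits without 1 library. At high flow Arg1 was at 0 to 2.33 FPKM at 48 h and at 0 in both libraries of 7 d. Its interaction with flow was 2.64 ± 3.25, adjusted p = 0.73. The monocyte antigen Ly6c2 was at 34.5, 19.7, 10.4 and 44.1 FPKM at 48 h and at 4.25, 16 and 3.24 at 7 d, with overlap through library 4 (−1.96 ± 0.61, adjusted p = 0.048). Those were the 3 of 22 monocyte and macrophage markers that passed, beside 7.4% of all genes, and the list's median was −0.43.

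Of 15 neutrophil markers tested, 1 passed, beside 7.4% lowered among all genes: Retnlg, a resistin-like protein of granulocytes. It was at 22.9, 12.4, 17.7 and 37.4 FPKM at 48 h and at 1.04, 2.98 and 0.418 at 7 d, without overlap (−4.08 ± 0.91, adjusted p = 0.013; −2.86 with the length offset, adjusted p = 0.097). Cxcr2, the chemokine receptor of neutrophils, was at 27.2, 7.79, 6.25 and 23.7 FPKM at 48 h and at 0.104, 24.1 and 1.47 at 7 d (−1.08 ± 1.11, adjusted p = 0.56). Library 4 was inside the range of 48 h while libraries 1 and 5 were below it. Itgam, an integrin of myeloid cells, was at 2.18, 26.2 and 2.35 FPKM at 7 d against 5.14 to 17.5 at 48 h (−0.23 ± 0.75, adjusted p = 0.88). Ptprc, the leukocyte antigen CD45, was at 22.5, 41.2 and 7.79 FPKM at 7 d and 8.73 to 34.1 at 48 h (−0.09 ± 0.48, adjusted p = 0.92). The macrophage genes Cd68 (15.4, 37.7 and 9.2 FPKM, against 24.3 to 52.2, adjusted p = 0.19) and Emr1 (3.62, 14.1 and 1.06, against 3.27 to 6.87, adjusted p = 0.92) did not pass either. In all 7 low-flow libraries Ptprc and Cd68 were above all 6 high-flow libraries, whose highest values were 2.81 and 4.25 FPKM.

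Among 24 cytokines and chemokines tested, 1 rose and 1 fell, beside 6.35% raised and 7.4% lowered among all genes. Ccl7, which draws monocytes, fell from 26.6, 13.8, 17.3 and 7.82 FPKM to 0.646, 3 and 0.148 (−3.82 ± 1.03, adjusted p = 0.028). Csf1, the growth factor of macrophages, rose from 60.1, 42.7, 42.2 and 25.1 FPKM to 196, 75.6 and 110 (1.42 ± 0.31, adjusted p = 0.013; 1.15 with the length offset, adjusted p = 0.080), while the high-flow libraries lay at 72.1 to 155. Neither gene overlapped between the times, and Ccl7 lost its call in 6 of the 13 fits without 1 library. Of 8 platelet markers tested, the chemokine Pf4 fell, from 30.3, 32.5, 44.9 and 19.6 FPKM at 48 h to 9.23, 8.5 and 1.53 at 7 d (−2.48 ± 0.60, adjusted p = 0.018; −1.37 with the length offset, adjusted p = 0.15), and was at 3.14 to 8.86 at high flow.

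Interferon-inducible genes that passed were all higher at 7 d. Of 24 genes of the interferon-gamma response and MHC class I, 6 rose and 0 fell, with a median of 0.93, beside 6.35% raised and a median of 0.05 over all genes. Among them were the GTPases Gbp3 and Gbp4, the peptide transporter genes Tap1 and Tap2, and Cd274 (PD-L1). Gbp4 was at 22.6, 5.76, 10.8 and 8.61 FPKM at 48 h and at 82.8, 38.2 and 29.3 at 7 d, without overlap, against 39.4 to 112 at high flow (1.91 ± 0.44, adjusted p = 0.015; 1.53 with the length offset, adjusted p = 0.097). Cd274 was at 4.85, 1.26, 3.42 and 3.1 FPKM at 48 h and at 12.7, 17.9 and 5.38 at 7 d (1.75 ± 0.46, adjusted p = 0.026; 1.46 with the length offset, adjusted p = 0.12), again without overlap. Of 21 genes stimulated by type I interferon, 3 rose (Cmpk2, Ddx58 and Ifit2) and 18 did not pass, with a median of 0.23. With the offset the medians were 1.00 and 0.39, and 0 of these genes passed. Without library 1, 2 of the 24 were called, and without PBS library 1 or 2 of 48 h 0 and 0. With library 1 as the only 7 d library, assumed to vary like the other groups, the count was 13.

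The antigen presentation genes of MHC class II did not pass, 0 of 11. Cd74, the invariant chain, was at 740, 710, 126 and 292 FPKM at 48 h and at 1443, 1275 and 242 at 7 d (0.94 ± 0.69, adjusted p = 0.39). Of 18 T and NK cell genes tested 0 passed, with a median of 1.63, and Lck, a kinase of T cell receptor signals, was at 85.7, 11.4 and 3.4 FPKM in libraries 1, 4 and 5. Igj, the joining chain of antibodies, was the 1 of 5 B and plasma cell genes that passed, at 0.0537 to 0.248 FPKM at 48 h and at 13.6, 2.6 and 2.57 at 7 d (5.18 ± 1.30, adjusted p = 0.021), a call that was lost without library 1 and without IgG library 2, PBS library 1 or PBS library 2 of 48 h. Among 9 dendritic cell, 6 red cell and 9 fat genes tested, and 5 of thyroid, nerve and skeletal muscle, 0 passed. Over all genes 6.35% rose and 7.4% fell.

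The summed FPKM of the cell cycle genes in libraries 4 and 5 of 7 d lay above those of all 4 low-flow libraries of 48 h. Library 1 was lower, and single genes varied. These sums do not carry the TMM factors of the tests, which were 1.09 and 1.06 for libraries 4 and 5. The factors were 1.01 for IgG library 2 and 0.932 for PBS library 2 of 48 h, and with them that order does not hold. Summed over 26 genes of DNA replication, the level was 985, 1644, 761 and 1677 FPKM at 48 h and 382, 1696 and 2629 at 7 d, against 176 to 411 at high flow. Pcna, the sliding clamp of DNA polymerases, was at 182, 255, 159 and 342 FPKM at 48 h and at 60.3, 178 and 359 at 7 d. The groups overlapped, and the log2 difference was −0.39 ± 0.49, adjusted p = 0.64. All 26 replication genes passed as higher at low than at high flow at 48 h, beside 25.1% of all genes, and their median log2 difference was 2.69. At 7 d the median was 3.18, and 9 passed with 3 against 2 libraries, beside 2.12%. Between the times at low flow 0 of 26 passed, and without library 1 3 did. Ube2c, a ubiquitin conjugating enzyme of mitosis, was at 105, 161, 21.3 and 216 FPKM at 48 h and 9.42, 169 and 91.5 at 7 d (−0.64 ± 1.09, adjusted p = 0.74), and of 26 mitosis genes 0 passed between the times. At 48 h PBS library 1 was the low one, as the mitosis sums of 725, 1269, 153 and 1324 FPKM show.

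Counts of growth and stress genes are given beside the 7.4% lowered among all genes. Of 23 ribosome biogenesis genes 2 fell (the methyltransferase Fbl and Rrp9), each lost in 9 of the 13 fits without 1 library, with a median of −0.59. With library 1 as the only 7 d library 14 were called, with the spread taken from the other groups. All genes had a share of 7.4% lowered, which is near that of the ribosome biogenesis list. Of 16 immediate early and heat shock genes, 3 fell (Fos, Ier2 and Ier3), with a median of −1.16. Ier3, an early gene of stress responses, was at 141, 65.9, 162 and 138 FPKM at 48 h and at 57.1, 64 and 50.7 at 7 d, without overlap (−1.33 ± 0.28, adjusted p = 0.011; −0.67 with the length offset, adjusted p = 0.16). Fos, a subunit of AP-1, was at 273, 27.6, 35.2 and 65 FPKM at 48 h and at 14.4, 25.6 and 9 at 7 d (−2.74 ± 0.81, adjusted p = 0.040), and IgG library 1 was far above the other 3 of 48 h. Atf4, a factor of the amino acid and unfolded protein responses, fell from 146, 122, 230 and 139 FPKM to 46.8, 101 and 90.1 (−1.18 ± 0.31, adjusted p = 0.024), as 1 of 18 genes, a share below that of all genes.

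Of 22 glycolysis and hypoxia genes 0 passed, and Gapdh was at 1448 to 2325 FPKM and then 795, 1522 and 1239. The clock genes Tef and Nr1d2 rose among 15, with a median of 0.97, beside 6.35% raised among all genes. Each lost its call in at least 8 of the 13 fits without 1 library. The hour at which vessels were taken is not given in the sources used here. Of 22 splicing regulators 0 passed. Rbfox2, the gene that is floxed in the 7 d mice, was at 4.72, 5.25, 4.59 and 6.9 FPKM at 48 h and 3.27, 5.73 and 2.74 at 7 d, with overlap (−0.63 ± 0.29, adjusted p = 0.16).

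Among the genes named by the size of their change, Ltbp2, a latent TGF-beta binding protein (chromosome 12, 86124162 to 86217482, minus strand), was at 2.4, 1.35, 1.48 and 0.758 FPKM at 48 h and at 14.2, 5.32 and 13 at 7 d, above all high-flow libraries (0.188 to 1.06). It rose 6.53-fold (2.71 ± 0.56, adjusted p = 0.010; 2.21 with the length offset, adjusted p = 0.037), and at 7 d it was 12.9-fold above high flow (adjusted p = 0.030). Itgb4, the integrin beta 4 chain (chromosome 11, 115836023 to 115869726, plus strand), was at 10.1, 3.58, 4.19 and 4.13 FPKM at 48 h and at 50.2, 15.4 and 28.5 at 7 d, against 23.1 to 94.7 at high flow (2.36 ± 0.47, adjusted p = 0.0091; 1.87 with the length offset, adjusted p = 0.032). Both genes were without overlap between the times. Hebp1, a heme-binding protein, was at 0.324 to 0.596 FPKM at 48 h and at 8.35, 1.58 and 7.6 at 7 d. At high flow it was at 0.0774 to 0.799 at 48 h and at 5.85 and 12.6 at 7 d, and its interaction was −0.45 ± 1.08, adjusted p = 0.87.

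In 8 of the 12 raised genes library 1 stood over 2-fold above both other 7 d libraries: Igj, Ugt8a, Scd1, Clic5, C1s, Adck3, Ltbp1 and Gpm6a. Scd1, a fatty acid desaturase, was at 142, 12.4 and 33.3 FPKM at 7 d and 5.43 to 11.2 at 48 h. Ugt8a, which makes galactosylceramide, was at 39, 5.28 and 4.6 FPKM against 0.877 to 2.35. The complement protease C1s was at 9.99, 3.55 and 3.01 against 0.325 to 1.67, and Ltbp1, the relative of Ltbp2, at 13.8, 3.53 and 5.17 against 0.71 to 2.52. None of these 4 overlapped between the times. Clic5 (24.1, 6.1 and 10 FPKM, against 0.97 to 5.07), Adck3 (19.7, 2.77 and 3.92, against 0.74 to 2.41), Gpm6a (63.7, 14.6 and 12.3, against 4.69 to 8.59) and Mcf2l (11.8, 5.86 and 6.31, against 0.962 to 2.88) complete the raised genes. The interaction with flow did not pass for any of the 12, with adjusted p from 0.078 (Clic5) to 0.87 (Hebp1). At high flow Ugt8a was at 2.26 to 4.47 FPKM at 48 h and at 14 and 5.02 at 7 d. Gpm6a was there at 6.79 to 10.6 and then 27.8 and 15.1. Scd1 was at 31.6 to 38.2 and then 55.3 and 20.3, and Clic5 at 24.3 to 49.5 and then 31.6 and 32.1.

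Among the lowered genes, Gap43, a protein of growing axons, was at 8.39, 11.7, 4.62 and 30 FPKM at 48 h and 0.261, 1.95 and 1.34 at 7 d (−3.71 ± 1.03, adjusted p = 0.030). Hopx, a homeodomain-only protein, was at 5.83, 5.63, 4.57 and 6.48 FPKM and then 1, 0.983 and 0.101 (−3.15 ± 0.75, adjusted p = 0.017). Ltc4s, which makes leukotriene C4, was at 2.6, 9.58, 7.62 and 2.15 FPKM and then 1.36, 0.327 and 0.218 (−3.21 ± 0.95, adjusted p = 0.041). These low-flow groups did not overlap, by the rule that named them. At high flow Gap43 was at 2.18 to 16.7 FPKM at 48 h and at 0.176 and 1.46 at 7 d. Hopx was there at 0.665 to 1.83 and then 0.0707 and 0.277, and Ltc4s at 0.65 to 2.01 and then 0.611 and 0.2. The interactions of Gap43, Hopx and Ltc4s were −0.36, −0.39 and −1.74 (adjusted p = 0.93, 0.92 and 0.56) and did not pass. Prnd, which encodes the prion-like protein doppel, was at 6.37, 16.5, 5.41 and 8.01 FPKM and then 0.173, 1.14 and 2.13 (−3.14 ± 0.88, adjusted p = 0.033). Ltc4s lost its call in 7 of the 13 fits without 1 library, and Gap43 and Prnd in 4 each.

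On the positive side of the interaction were the interferon-inducible genes Samd9l and Gbp9. Samd9l (chromosome 6, 3322257 to 3349571, minus strand) was at 9.95, 8.83, 5.77 and 7.18 FPKM at 48 h and at 25.4, 22.9 and 20.4 at 7 d at low flow, and at 31.1 to 38.9 and then 28 and 29.5 at high flow. The change was 1.37 ± 0.17, adjusted p = 0.0042 at low flow and −0.37 ± 0.19, adjusted p = 0.76 at high flow. The difference of 1.74 ± 0.26, adjusted p = 0.0028 passed in all 13 fits without 1 library. For Gbp9 the difference was 1.72 ± 0.42, adjusted p = 0.039. For Fkbp5, a glucocorticoid-induced chaperone, it was 2.62 ± 0.67, adjusted p = 0.047, with levels of 7.16 to 18 and then 22.2 to 23.7 FPKM at low flow and 8.83 to 40.9 and then 6.51 and 7.96 at high flow. For Lyve1, a hyaluronan receptor of lymphatic endothelium and of macrophages, it was 2.12 ± 0.48, adjusted p = 0.025. At high flow it was at 19.6 to 35 FPKM at 48 h and at 8 and 8.84 at 7 d, which did not pass (−1.74 ± 0.38, adjusted p = 0.22), and at low flow at 4.29 to 8.26 and 5.16 to 11.6. Dock11 (1.85 ± 0.42, adjusted p = 0.025) and Klhdc5 (1.72 ± 0.44, adjusted p = 0.048) were the other positive genes named.

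On the negative side, 351 of the 448 genes were under 1 kb. Named there were Angpt2 and Prnd, with the small nucleolar RNA host gene Snhg6, the histone gene Hist1h4d and the ribosomal protein genes Rps28 and Rpl38. Rpl38 was at 193, 191, 293 and 226 FPKM at 48 h and at 85.9, 71.3 and 19.4 at 7 d at low flow, and at 10.1 to 24.4 and then 64.9 and 57.8 at high flow. The change at high flow did not pass (1.88 ± 0.49, adjusted p = 0.31), and the difference between the changes was −4.0 ± 0.67, adjusted p = 0.0052. With the length offset that difference was −0.38, adjusted p = 0.88, and the change at low flow −0.31, adjusted p = 0.68. Snhg6 was at 11 to 15.5 FPKM and then 0.735 to 1.83 at low flow, against 0.821 to 3.86 at high flow (−4.90 ± 0.95, adjusted p = 0.011). Rps28 was at 38.3 to 49.2 FPKM and then 3.18 to 19.2 at low flow, and at 1.21 to 8.17 and then 27.9 and 13.6 at high flow. Its interaction was −4.05, adjusted p = 0.036, and −0.74 with the length offset, adjusted p = 0.81. Prnd and Hist1h4d were listed at 0 in several high-flow libraries, so the sizes of their fitted differences depend on the prior count: Hist1h4d was at 10.5 to 40.6 FPKM and then 2.57 to 6.74 at low flow, and at 0 to 0.85 and then 5.19 and 2.09 at high flow.

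Ribosomal proteins as a family, a list written after the values were seen, moved together. Of 82 tested, 77 fell at low flow and 0 rose, beside 7.4% lowered among all genes, with a median of −1.57. At high flow 0 passed and the median was 0.97. They took 1.71% to 2.47% of the counts at 48 h and 0.812% to 1.11% at 7 d at low flow, and 0.415% to 0.741% at high flow. Of 72 genes of the respiratory chain, another list written afterwards, 49 fell and 0 rose at low flow, with a median of −1.26. Both lists are of short transcripts, with median lengths of 706.5 and 638 bases, and with the length offset 11 and 2 of their members fell, with medians of −0.45 and −0.15. Of the 7 genes whose interaction held with the offset, 5 encode ribosomal proteins (Rpl21, Rpl23, Rpl31, Rpl37 and Rps15a), beside the dynein light chain Dynll1 and the translocon subunit Sec61g. The deposited lengths of these 5 were 1854, 1062, 1037, 867 and 5134 bases, all above the family median of 706.5. The offset uses these lengths, and their part in the 5 calls was not tested. For Rps15a, the longest, the interaction with the offset was −3.45, adjusted p = 0.025. Rps15a was at 11.8, 9.67, 15.6 and 14.9 FPKM at 48 h and 4.61, 6.03 and 2.43 at 7 d at low flow, and at 1.44 to 1.58 and then 4.37 and 3.24 at high flow (−3.01 ± 0.44, adjusted p = 0.0025). Its levels at 7 d overlapped between the vessels. Genes of this family have processed copies in the genome that may share reads.

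Between low and high flow 6359 genes passed at 48 h (47.4%, 25.1% higher and 22.3% lower at low flow) and 550 at 7 d (4.1%), 2.12% higher and 1.98% lower at low flow, where 3539 had an unadjusted p under 0.05. The groups held 4 against 4 and 3 against 2 libraries, so these counts are not set against each other. At 48 h flow and run coincide, and with a run term, which rests on the low-flow libraries of 7 d, 5379 genes passed there. Without library 1, 3787 genes passed at 7 d, and with low-flow library 4 alone against the high-flow libraries of its own run, 3032, with the lone library assumed to vary like the other groups. Without library 4 of low flow 65 passed at 7 d, and without high-flow library 4 or 5 there were 14 and 13.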

How the data were processed

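Intimal RNA was amplified with the Clontech SMARTer Universal Low Input kit and read in pairs of 150 bases. The authors mapped reads to mm9 with STAR 2.5.1b and deposited expected counts per gene from RSEM 1.2.15, without normalization. The deposited transcript lengths and effective lengths are in bases, 1 value per gene. Of the value columns, 191 belong to other samples, to an earlier run of 1 library or to the authors' RPKM values and were not used. The table had 1 entry without a name, with at most 0.0614% of a library's counts, which was left out.

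After rounding, quasi-likelihood tests were run in edgeR 4.0.16 (R 4.3.3) on genes that passed filterByExpr, with TMM scaling and Benjamini-Hochberg adjustment at 0.05. The 4 groups of flow and time were fitted over all 13 libraries, and IgG and PBS libraries formed 1 group at 48 h. The alternatives were DESeq2 1.42.0, other filters and scalings, left-out libraries and, chosen after the data were seen, the run and length settings. The length offset is a spline of 5 degrees of freedom over log2 length in each library. The tests were tried on simulated counts. Adjusted p-values in the text are those of edgeR, and folds are on the count scale of the fit. Errors of fold changes are SE worked back from the test. Each is the absolute log2 fold change divided by the square root of the quasi-likelihood F. Depth limits low genes, and SE and p-values measure the spread between pools, which are not stated to be independent litters or days.

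The libraries, lists and named genes were chosen with earlier results of these data known. Genes named by size were, per direction, the 12 of largest fold among those past the threshold, without overlap in FPKM and with a mean of at least 5 FPKM in the higher group. For the interaction 6 were named per direction. Genes of sex-linked lists and without a letter symbol were left out of both. Each list gave up to 2 called members per direction, or its most abundant member. Rbfox2, Klf2, Klf4, Ptprc, Cd68, Emr1, Itgam, Cxcr2 and Fn1 were always named. Other genes in the text were chosen after their values were seen, where a list had few called members or a marker describes a library. The numbers 4 and 5 of the 7 d columns could not be tied to the replicate numbers of the labels. Gene positions are from the GENCODE annotation of NCBIM37, the assembly of mm9.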

Additional observations from a re-analysis of the deposited data

Results flagged for a closer look

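Of 117 groups of 4 libraries tested, 8 held a library whose gap to the others exceeded the critical value of Dixon's test, and chance gives about 1 in 20. In the 48 h low-flow group, IgG library 1 stood above the other 3 for Scd1 (11.2 FPKM, against 5.43 to 5.63), Itgb4 (10.1, against 3.58 to 4.19), Fos (273, against 27.6 to 65.0), Lyve1 (8.26, against 4.29 to 4.88) and Klf2 (105, against 23.2 to 24.6). IgG library 2 stood below the others for Rps28 (38.3 FPKM, against 48.8 to 49.2). In the 48 h high-flow group, PBS library 2 stood above the others for Tagln (94.6 FPKM, against 56.8 to 63.2) and Ube2c (49.2, against 1.56 to 6.51).

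The time effect differed between low and high flow, by the interaction in edgeR, for 15 of the named genes. The log2 difference was more negative at low flow for Prnd (−7.07, adjusted p = 0.034), Hist1h4d (−5.83, 0.029), Snhg6 (−4.90, 0.011), Angpt2 (−4.32, 0.0074), Rps28 (−4.05, 0.036), Rpl38 (−4.0, 0.0052), Id1 (−2.22, 0.018) and Ier3 (−1.71, 0.030). It was more positive for Itga8 (2.69, adjusted p = 0.040), Fkbp5 (2.62, 0.047), Lyve1 (2.12, 0.025), Dock11 (1.85, 0.025), Samd9l (1.74, 0.0028), Gbp9 (1.72, 0.039) and Klhdc5 (1.72, 0.048). The sizes for Prnd and Hist1h4d rest on high-flow libraries listed at 0.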

How the results depend on the processing

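The counts of called genes depended on the setting. At low flow (1843) DESeq2 gave 2799, a fold of at least 1 on the log2 scale as well 1136, the IgG libraries alone 0 and the length offset 217. Leaving out 1 library gave 731 to 2146. At high flow (0) DESeq2 gave 85, the high-flow libraries alone 6, no filter on low counts 3, the IgG or PBS libraries alone 1 each, and the fit without the libraries near the other flow 12. Leaving out 1 library gave 0 to 8. For the interaction (511) DESeq2 gave 1045, the IgG libraries alone 0, the PBS libraries alone 154, the length offset 7, a run term 316 and the fit without the libraries near the other flow 1276, and leaving out 1 library gave 119 to 927. For low against high flow at 48 h (6359) the IgG and PBS libraries alone gave 3331 and 2834, and leaving out 1 library 5022 to 7011. At 7 d (550) DESeq2 gave 2234, the IgG or PBS libraries alone at 48 h 73 and 53, the length offset 941, a run term 3764, library 4 within its run 3032 and the fit without the libraries near the other flow 4199, and leaving out 1 library gave 13 to 3787. Of the members of the gene lists, 44 were called at low flow, 77 with DESeq2, 0 with the IgG libraries alone, 6 with the length offset, 102 with a run term and 112 within 1 run, and leaving out 1 library gave 16 to 81. The sum of repeat runs of 1 library was not run, since the column of the earlier run was not used. The balance of directions turned over in some settings. At low flow, 851 higher and 992 lower became 1074 and 967 with a run term, 1186 and 1008 within 1 run, and 1082 and 1010 without library 4 of 7 d. At 7 d, 284 higher and 266 lower at low flow became 198 and 282 with IgG and PBS as separate groups, 22 and 51 or 6 and 47 with the IgG or PBS libraries alone, and 1559 and 675 with DESeq2. At 48 h, 3364 and 2995 became 2647 and 2732 with a run term. The causes were not tested.

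No paired analysis was possible because the low-flow groups of 7 d and 48 h share only the number 1. Between vessels, libraries of equal number correlated in their deviations at −0.01 (IgG), 0.37 (PBS) and 0.15 (7 d). The paper took high-flow RNA from the contralateral arteries of ligated mice, so pools of equal number may share mice. These correlations rest on 2 libraries per group and cannot decide that, and the main fit takes the pools as separate. With a replicate block the interaction gave 1118 genes, low against high flow 7112 at 48 h and 4212 at 7 d. In that fit low-flow library 1 of 7 d has no high-flow partner, so the flow difference at 7 d rests on libraries 4 and 5.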
